A study of Mus musculus with 4 samples.

Results

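The genes described here make cholesterol and fatty acids or steer their synthesis. They are 39 listed genes, 22 of a sterol branch (17 enzymes and 5 regulators) and 17 of a fatty acid branch (15 enzymes and 2 regulators), and each was read at every probe set that the array annotation assigns to its symbol alone. Of the 39 genes, 38 had such a probe set. A call of Present, by which the software marks a signal above background, was given on at least 2 of the 4 arrays for 35, which were tested among 10350 genes, out of 18193 genes with a probe set of their own.

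RNA from non-tumorous liver was hybridised to 1 Affymetrix mouse genome array per animal, from 2 G9aKO mice (*Alb-Cre* with both copies of *G9a* floxed) and 2 WT mice (*Alb-Cre* with intact *G9a*). The mice of both genotypes were 30 weeks old, had the Cre transgene, received 25 mg/kg of the carcinogen diethylnitrosamine (DEN) at day 15 and then 22 injections of 0.5 ml/kg carbon tetrachloride (CCl4), a liver toxin, and ate regular chow. G9a, the product of *Ehmt2*, methylates lysine 9 of histone H3 and represses genes. The albumin promoter drives Cre in hepatocytes. The authors found residual G9a protein in whole G9aKO liver and held that it probably came from other cells. Which other cell types keep *G9a* was not measured here. RNA of whole tissue cannot tell fewer cells of a type from less RNA per cell. Samples of 1 genotype are separate arrays in the labels, which number no animals, so that p-values measure the spread between these arrays.

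Cholesterol is built in the endoplasmic reticulum from acetyl-CoA by way of mevalonate, squalene and lanosterol. SREBP2, the product of *Srebf2*, is the transcription factor that switches this route on: SCAP escorts it to the Golgi when membrane sterol is low, and the INSIG proteins hold it back when sterol is high. SREBP1c, from *Srebf1*, and ChREBP, from *Mlxipl*, switch on fatty acid synthesis in liver after insulin and carbohydrate. SREBP binds sterol response elements beside NF-Y, which reads CCAAT boxes, and both SREBP1 and other basic helix-loop-helix factors can read the E-box CACGTG.

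The promoters of *Dhcr7*, *Msmo1* and *Idi1* are shown because these sterol genes had small p-values in the comparison of genotypes. That of *Hmgcs1* is shown because it was the only sterol window with an exact match to TCACNCCAC, a form of the sterol response element. This choice was made after the matches were seen. Other forms of the element were not searched, so that a window without this match may still hold one. Each promoter shown is the 250 bases before an annotated start, from RefSeq on GRCm38.p6, written in the direction of the gene. Of the other *Dhcr7* windows, 1 held CACGTG and neither held CCAAT. Capitals mark CCAAT (printed as ATTGG where it lies on the other strand) and, in *Hmgcs1*, also TCACNCCAC.
Dhcr7 (the most downstream of 3 annotated starts, shown because it alone of the 3 windows held CCAAT, chr7:143829964-143830213, plus strand): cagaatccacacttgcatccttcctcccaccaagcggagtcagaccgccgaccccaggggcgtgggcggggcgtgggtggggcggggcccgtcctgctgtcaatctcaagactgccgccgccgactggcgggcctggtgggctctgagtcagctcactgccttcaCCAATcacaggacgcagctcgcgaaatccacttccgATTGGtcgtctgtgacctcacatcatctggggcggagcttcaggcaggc
Msmo1 (chr8:64733579-64733828, minus strand): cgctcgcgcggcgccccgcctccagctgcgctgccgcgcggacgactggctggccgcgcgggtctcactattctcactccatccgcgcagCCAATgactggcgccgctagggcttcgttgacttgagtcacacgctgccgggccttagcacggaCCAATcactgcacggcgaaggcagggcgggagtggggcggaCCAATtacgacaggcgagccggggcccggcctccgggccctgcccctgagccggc
Idi1 (chr13:8885356-8885605, plus strand): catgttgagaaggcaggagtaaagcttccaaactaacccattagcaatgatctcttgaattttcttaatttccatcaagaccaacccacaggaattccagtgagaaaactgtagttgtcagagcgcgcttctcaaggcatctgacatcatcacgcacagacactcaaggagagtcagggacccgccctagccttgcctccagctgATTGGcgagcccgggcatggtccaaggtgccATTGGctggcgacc
Hmgcs1 (chr13:119690101-119690350, plus strand): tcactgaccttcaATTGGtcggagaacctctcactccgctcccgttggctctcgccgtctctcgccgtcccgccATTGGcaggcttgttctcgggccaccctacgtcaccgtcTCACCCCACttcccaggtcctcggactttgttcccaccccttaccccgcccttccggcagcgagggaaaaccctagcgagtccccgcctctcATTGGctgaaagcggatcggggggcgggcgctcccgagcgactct
The letters were searched on both strands, and no matches shared bases in the windows shown. CCAAT lay in 16 of 24 windows of the sterol branch (66.7%), which cover 18 genes, in 11 of 19 windows of the fatty acid branch (57.9%), which cover 14 genes, and in 33.8% of 32851 windows of the same length over all genes. CACGTG lay in 5 of the 24 sterol windows (20.8%), in 2 of the 19 fatty acid windows (10.5%) and in 6.02% of all windows. TCACNCCAC lay in 1 sterol window (4.17%, *Hmgcs1*), in 1 fatty acid window (5.26%, *Mlxipl*) and in 1.05% of all windows. These matches are descriptions of sequence, and no binding was measured. No promoter entry was used for *Sqle*, *Fdps*, *Fdft1*, *Stard4*, *Fads1*, *Scd1* and *Scd2*.

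The arrays had been scaled to a common trimmed mean of 500.0. On each, 41.3% to 43.9% of probe sets were Present. The upper quantile of Absent signals, below which nearly all of them lay, was 170.5 to 181.1, and some Absent signals were higher. Differences among signals near or below that level are therefore uncertain. Over all genes, 33 were higher in G9aKO liver at an adjusted p under 0.05 (0.319% of those tested) and 7 were lower (0.0676%), by limma with Benjamini-Hochberg adjustment. At an unadjusted p under 0.05, 5.92% were higher and 4.10% lower, and both arrays of G9aKO lay above both arrays of WT for 22.3% of genes and below both for 19.3%. *Ehmt2* had signals of 174 and 164 in G9aKO livers, called Absent, against 640.4 and 492 in WT livers, called Present. G9aKO livers were thus lower, with a log2 fold change of the measured signals of -1.73 (SE 0.23, adjusted p = 0.063, limma). A second probe set was not detected on any array. Where either lies relative to the floxed exons was not determined, and the check of the labels depends on it. An exact test of 2 arrays against 2 cannot give a two-sided p below 0.33, so that the p-values here are limma's, which rest on its variance model over all genes, unless another test is named.

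In the sterol branch, squalene epoxidase rose 4.19-fold and 4 further enzymes on either side of it had more than 2-fold higher mean signals in G9aKO liver without passing the adjusted test. Of the 19 tested sterol genes, 18 had a log2 fold change above 0, with a median of 0.47 beside 0.023 over all genes. The groups did not overlap for 12 of the 19 (63.2%) in the direction of higher signal in G9aKO liver, beside 22.3% of all genes. In the other direction they did not overlap for 1, *Ebp*, beside 19.3% of all genes. At an unadjusted p under 0.05, 8 were higher and 1 was lower, beside 5.92% and 4.10% of all genes. At the adjusted threshold 1 was higher and 0 were lower, beside 0.319% and 0.0676% of all genes. Centring each array on its median took *Fdft1* and *Insig1* to -0.026 and -0.027, and leaving out G9aKO array 1 lowered the median of the branch to 0.18. Genes of 1 pathway vary together between animals, so that these counts are not 19 separate observations.

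**Figure D1:**
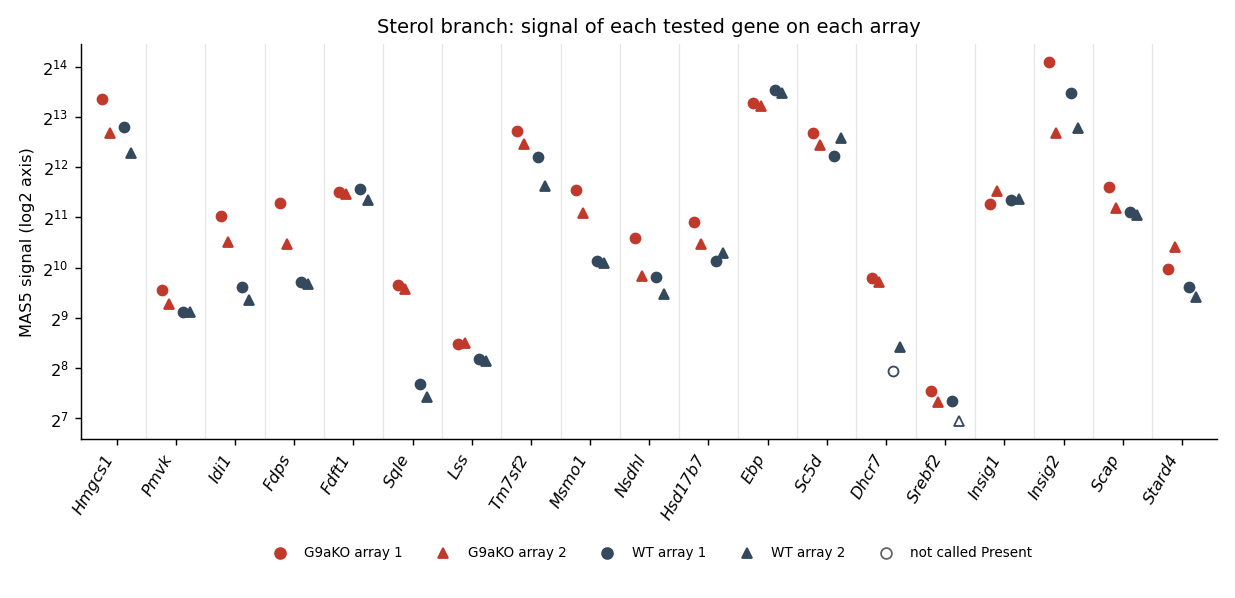
Signal (MAS5, on a log2 axis) of the 19 tested sterol genes at their brightest detected probe set on the 4 arrays, with G9aKO arrays in red to the left of WT arrays in dark grey and genes in the order of the pathway, followed by the 5 regulators. The G9aKO symbols of *Sqle*, *Dhcr7*, *Idi1*, *Msmo1* and *Fdps* stand apart above the WT symbols, while those of *Fdft1*, *Sc5d* and *Insig1* lie among them.

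*Sqle*, which encodes squalene epoxidase and catalyses the first oxygenation of the route and one of its rate-limiting steps, had signals of 810.1 and 759.8 in G9aKO livers, against 205 and 171 in WT livers. All 4 were called Present, and either G9aKO array was 3.71 to 4.74 times as high as either WT array. The means were 785 ± 35.6 and 188 ± 23.9 (SD, n = 2 each), and the fitted log2 fold change was 2.07 with an SE of 0.20 (adjusted p = 0.0311, limma). It stood at rank 15 of 10350 genes by p and was the only gene of either branch past the adjusted threshold. The call was lost without G9aKO array 1 (adjusted p = 0.0632), without WT array 1 (0.117) or without WT array 2 (0.121), where the fold change stayed between 1.94 and 2.20, and it was also lost with no filter on detection calls (0.054), with no trend of variance on signal (0.134) and by the methods' t-test on the same values (0.491).

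The early steps, from acetyl-CoA to farnesyl diphosphate, were unequal. *Hmgcs1*, which makes HMG-CoA from acetyl-CoA units, had signals of 10465 and 6569 in G9aKO livers, against 7109 and 4947 in WT livers. The lower G9aKO array lay below the higher WT array (log2 fold change 0.48, SE 0.27, adjusted p = 0.603), and the 4 detected probe sets of the gene gave differences between 0.33 and 0.61. *Acat2*, which makes the acetoacetyl-CoA that *Hmgcs1* uses, had no probe set assigned to it alone. *Mvk* and *Mvd*, the kinase and the decarboxylase that act on mevalonate and its diphosphate, were Absent on every array at both probe sets. At the brighter *Mvk* probe set the signals were 266 and 291 in G9aKO livers, against 258 and 276 in WT livers. The brighter *Mvd* probe set had 197 and 260.4 in G9aKO livers, against 191 and 175 in WT livers. Neither gene is above background here, and no fold is given. *Pmvk*, the kinase between them, had 758 and 623 in G9aKO livers, against 554 and 553 in WT livers, without overlap (log2 fold change 0.31, adjusted p = 0.627).

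*Idi1*, which isomerises the 5-carbon building block of all isoprenoids, had signals of 2075 and 1467 in G9aKO livers, against 784 and 658 in WT livers. Every G9aKO array was at least 1.87 times as high as every WT array, and the fitted log2 fold change was 1.28 with an SE of 0.21 (unadjusted p = 0.000949, adjusted p = 0.113, limma). Its second probe set had 1253 and 823 in G9aKO livers, against 369.9 and 267 in WT livers, a log2 difference of 1.69. *Fdps*, which joins those blocks to farnesyl diphosphate, had 2515 and 1422 in G9aKO livers, against 838 and 818 in WT livers. The 2 G9aKO arrays differed 1.77-fold from each other and both lay above WT (log2 fold change 1.19, SE 0.27, adjusted p = 0.23). *Fdft1*, squalene synthase and the step directly before *Sqle*, had 2920.2 and 2840.1 in G9aKO livers, against 3018 and 2609.7 in WT livers. The groups overlapped (log2 fold change 0.037, SE 0.13, adjusted p = 0.945), and a second detected probe set gave 0.012.

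After squalene epoxidation, *Lss* closes the rings to lanosterol. Its signals were 359 and 363 in G9aKO livers, against 292 and 281 in WT livers, a small difference without overlap (log2 fold change 0.34, adjusted p = 0.634). *Tm7sf2*, a sterol reductase that acts after the first demethylation of lanosterol, had 6789 and 5606 in G9aKO livers, against 4692 and 3174 in WT livers. Both G9aKO arrays were above both WT arrays (log2 fold change 0.68, SE 0.21, unadjusted p = 0.0181, adjusted p = 0.381, limma). *Msmo1*, the oxidase that starts removal of the remaining methyl groups, had 2986 and 2188 in G9aKO livers, against 1116 and 1089 in WT livers. The WT arrays were nearly equal, and the lowest ratio of a G9aKO array to a WT array was 1.96 (log2 fold change 1.21, SE 0.18, adjusted p = 0.0858).

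*Nsdhl* and *Hsd17b7* complete that demethylation as the dehydrogenase and the ketoreductase. *Nsdhl* had 1545 and 916 in G9aKO livers, against 905 and 717 in WT livers, where the closest arrays differed 1.01-fold (log2 fold change 0.56, adjusted p = 0.562). *Hsd17b7* had 1919.8 and 1421 in G9aKO livers, against 1126 and 1255 in WT livers (log2 fold change 0.47, SE 0.19, unadjusted p = 0.0446, adjusted p = 0.491). The other 2 detected probe sets of *Hsd17b7* gave smaller differences of 0.29 and 0.15 with overlapping groups.

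The final steps shift and reduce the double bonds of the sterol. *Ebp*, the isomerase that moves a ring double bond, had 9960.3 and 9498 in G9aKO livers, against 11835 and 11322 in WT livers. It was the only tested sterol gene with a fold change below 0 on the deposited scaling, by a small margin and without overlap (log2 fold change -0.25, SE 0.10, unadjusted p = 0.0468, adjusted p = 0.495). *Sc5d*, the desaturase of the next step, had 6549 and 5576 in G9aKO livers, against 4809 and 6164 in WT livers (log2 fold change 0.15, adjusted p = 0.794). Its 3 detected probe sets differed in sign, with 0.078 at the second and -0.47 at the third, whose signals of 77.3 and 133 in G9aKO livers and 149.8 and 133 in WT livers lie within the range of Absent calls. *Dhcr7*, the reductase that yields cholesterol, had 886 and 838 in G9aKO livers, against 248 and 343 in WT livers. The lower WT array was called Absent, both G9aKO arrays were Present, and the ratio of any G9aKO to any WT array was 2.44 to 3.58. The log2 fold change of 1.56 (SE 0.22, unadjusted p = 0.00037) missed the adjusted threshold at 0.0722.

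**Figure D2:**
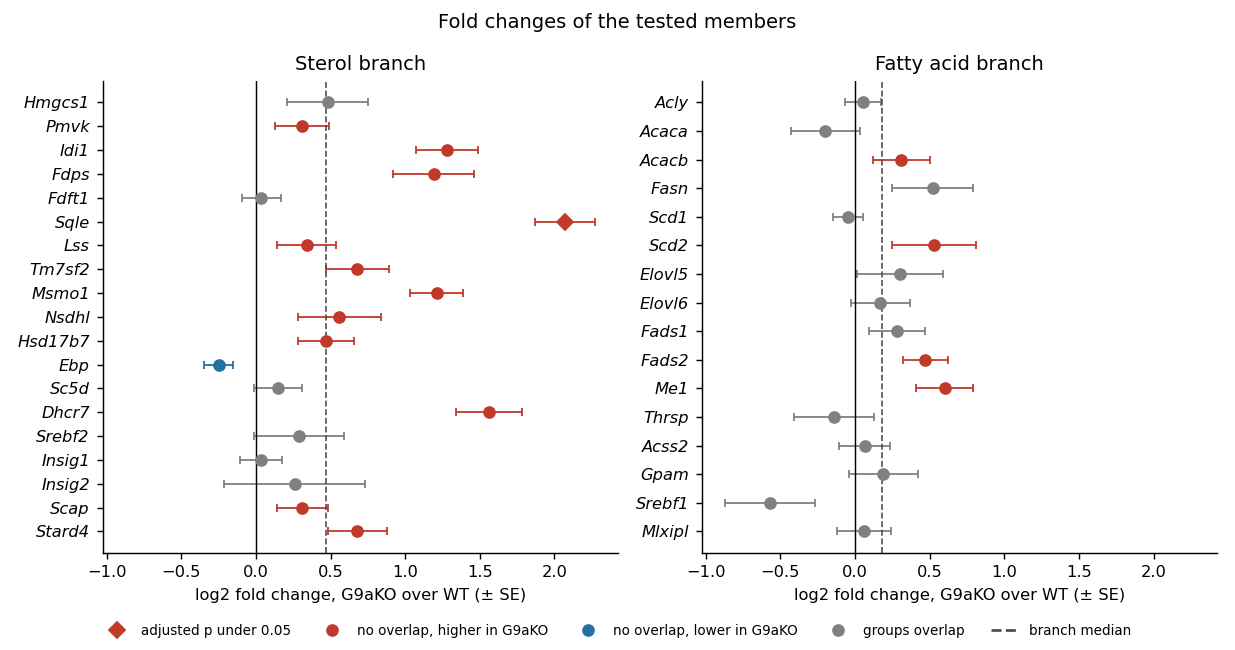
Log2 fold change of G9aKO over WT with its SE for the 19 tested sterol genes (left) and the 16 tested fatty acid genes (right), coloured by whether the arrays of the genotypes overlap, with each branch's median as a dashed line. *Sqle* at 2.07 is the only diamond, which marks an adjusted p under 0.05, and the branch medians lie at 0.47 and 0.18.

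The 5 regulators of the sterol branch gave no call. At the probe sets used, all 5 had a log2 fold change above 0, with a median of 0.29. *Scap* and *Stard4* were higher in G9aKO liver without overlap, 2 of 5 (40.0%), beside 22.3% of all genes. The groups overlapped for *Srebf2*, *Insig1* and *Insig2*. *Srebf2* had signals of 188 and 160.4 in G9aKO livers, against 163 and 123 in WT livers, the last called Absent (log2 fold change 0.29, SE 0.30, adjusted p = 0.786). A brighter probe set that was Present on 1 array only had 319 and 333 in G9aKO livers, against 368 and 397 in WT livers, a difference of -0.23 in the other direction. The direction of *Srebf2* is therefore not settled by these arrays. *Scap*, the escort of SREBP, had 3117 and 2317 in G9aKO livers, against 2210.5 and 2114 in WT livers, without overlap but with an adjusted p of 0.603 (log2 fold change 0.31, SE 0.17).

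*Insig1*, which holds SCAP in the endoplasmic reticulum and is itself a target of SREBP, had 2466 and 2944 in G9aKO livers, against 2611 and 2646 in WT livers. The WT arrays lay between the G9aKO arrays (log2 fold change 0.036, SE 0.14, adjusted p = 0.951). *Insig2*, a second anchor whose liver transcript follows the body clock in mice, had 17482 and 6559.9 in G9aKO livers, against 11412 and 6988 in WT livers. Its spread within genotypes, 2.66-fold in G9aKO and 1.63-fold in WT, exceeded the difference between them (log2 fold change 0.26, SE 0.47, adjusted p = 0.889), and at all 3 probe sets array 1 was the higher one in both genotypes. *Stard4*, a soluble carrier of cholesterol and a target of SREBP2, had 1002 and 1369 in G9aKO livers, against 782 and 686 in WT livers. Both G9aKO arrays lay above both WT arrays (log2 fold change 0.68, SE 0.20, unadjusted p = 0.0153, adjusted p = 0.357, limma), and the other probe sets gave 0.56 and 0.26. No other regulator had an unadjusted p this small.

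In the fatty acid branch, 12 of 16 tested genes had a log2 fold change above 0, with a median of 0.18 and a range of -0.57 to 0.60. The groups did not overlap for 4 of them, all higher in G9aKO liver, a share close to the 22.3% over all genes. Of the 16, 2 had an unadjusted p under 0.05 by limma (*Me1* and *Fads2*, both higher), beside 5.92% of all genes higher and 4.10% lower. At an adjusted p under 0.05 there were 0 by limma, beside 0.319% of all genes higher and 0.0676% lower, and 0 by the methods' t-test. A mean more than 2-fold apart between genotypes was seen for 0. Centring each array on its median lowered the branch median to 0.12 and put *Acly* and *Mlxipl* just below 0, at -0.0084 and -0.0038. Whether the branches differ from each other was not tested.

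*Me1*, malic enzyme, supplies NADPH for fatty acid synthesis. Its signals were 6161 and 8271 in G9aKO livers, against 4140.5 and 5386 in WT livers, without overlap (log2 fold change 0.60, SE 0.19, unadjusted p = 0.0221, adjusted p = 0.403). A second probe set had 3516 and 3408 in G9aKO livers, against 2451 and 2013 in WT livers, a log2 difference of 0.64 with an unadjusted p of 0.00369 in the fit over probe sets. *Fads2*, which with *Fads1* puts double bonds into polyunsaturated fatty acids, had 3448 and 3401 in G9aKO livers, against 2192 and 2799.7 in WT livers. Both G9aKO arrays were higher at each of its 3 probe sets, with log2 differences of 0.47, 0.25 and 0.22 (adjusted p = 0.413 at the brightest, limma). *Fads1* itself overlapped at its brightest probe set, with 7767 and 5516 in G9aKO livers and 5918 and 4913 in WT livers (log2 fold change 0.28, adjusted p = 0.683). Its second detected probe set had 203 and 281 in G9aKO livers, against 107 (Absent) and 167 in WT livers, without overlap. The log2 difference there was 0.84 (unadjusted p = 0.0449, adjusted p = 0.527, limma over probe sets), with WT signals within the range of most Absent calls. The mean over its probe sets gave 0.56.

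The core enzymes, from citrate to palmitate, gave small differences of both signs. *Acly*, which splits citrate to cytosolic acetyl-CoA, had 2496 and 2690.1 in G9aKO livers, against 2559.8 and 2432 in WT livers (log2 fold change 0.054, adjusted p = 0.917). Its 5 detected probe sets ranged between -0.74 and 0.88, where both extremes came from probe sets with signals of at most 111 that were Present on 2 arrays. *Acss2*, the other source of acetyl-CoA, from acetate, had 2413 and 2896 in G9aKO livers, against 2239.6 and 2855 in WT livers, with overlap (log2 fold change 0.064). *Acaca*, the carboxylase that commits acetyl-CoA to fatty acids, had 426 and 489.6 in G9aKO livers, against 628 and 439.9 in WT livers, with overlap (log2 fold change -0.20, SE 0.23, adjusted p = 0.813). *Acacb*, the mitochondrial form, whose product restrains fatty acid oxidation, had 584 and 536 in G9aKO livers, against 408 (Absent) and 495 in WT livers (log2 fold change 0.31, adjusted p = 0.642). *Fasn*, fatty acid synthase, had 738 and 992 in G9aKO livers, against 742 and 477 in WT livers. The lower G9aKO array lay just below the higher WT array (log2 fold change 0.52, SE 0.27, adjusted p = 0.575).

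Stearoyl-CoA desaturases introduce the first double bond. *Scd1*, the main liver form, had 70401 and 63843 in G9aKO livers, against 71665 and 66743 in WT livers, a difference of -0.045 (SE 0.10, adjusted p = 0.91) that turned to 0.015 after quantile normalization. The brightest signals on the arrays were 91121 to 99523, and *Scd1* ranked 24 to 29 from the top over all probe sets. Saturation was not tested. Its second probe set had 1632 and 2126 in G9aKO livers, against 2261 and 1479 in WT livers, a difference of 0.027. *Scd2*, the form typical of brain and of the liver of young mice, had 513 and 322 in G9aKO livers, against 287 and 275 in WT livers. The G9aKO arrays lay above WT and differed 1.59-fold from each other (log2 fold change 0.53, SE 0.28, adjusted p = 0.58).

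The elongases *Elovl5* and *Elovl6*, which lengthen polyunsaturated and saturated chains, gave log2 fold changes of 0.30 and 0.17, and *Gpam*, which starts glycerolipid assembly, gave 0.19. In *Elovl5* and *Gpam* the difference rested on WT array 1: *Elovl5* had 23966 and 24376 in G9aKO livers, against 14121 and 27262 in WT livers, and *Gpam* 10718 and 10608 in G9aKO livers, against 7262 and 11971 in WT livers. Without WT array 1 they were below 0, at -0.17 for both. *Thrsp*, a lipogenic protein induced by thyroid hormone and carbohydrate, had 724 and 1095 in G9aKO livers, against 813 and 1185 in WT livers (log2 fold change -0.14, adjusted p = 0.902). *Pnpla3*, a lipid droplet protein under SREBP1c and ChREBP, was Absent on all arrays, with 90.9 and 135 in G9aKO livers and 183 and 134 in WT livers.

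**Figure D3:**
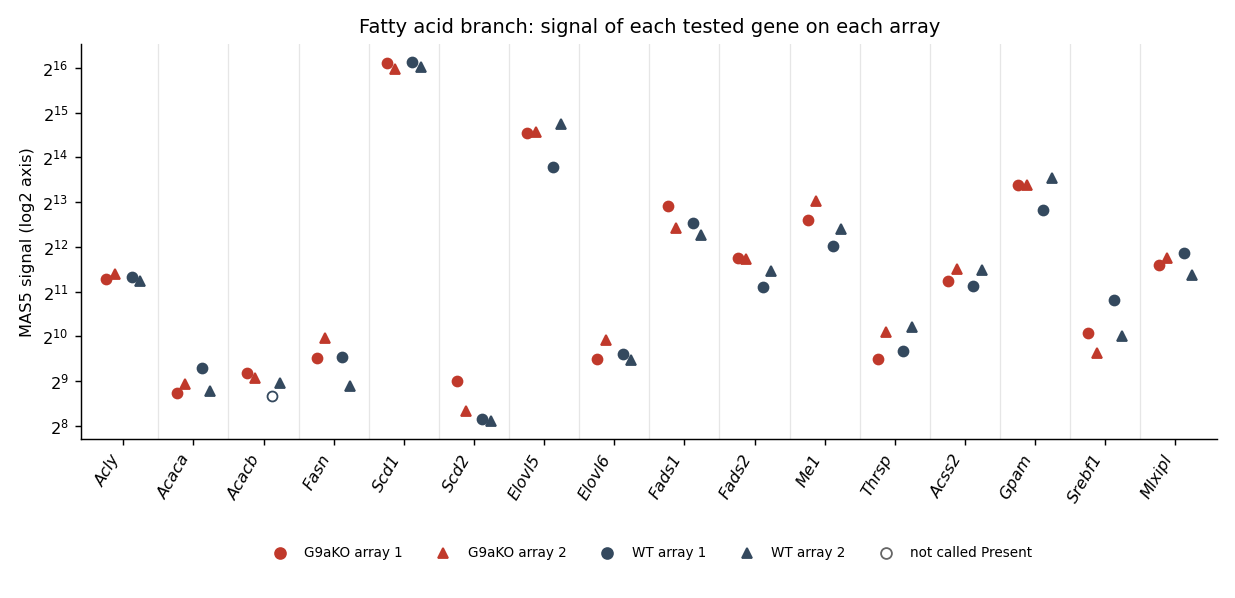
Signal (MAS5, on a log2 axis) of the 16 tested fatty acid genes on the 4 arrays, with G9aKO arrays in red to the left of WT arrays in dark grey and the regulators *Srebf1* and *Mlxipl* at the right. The genotypes overlap for 12 genes and part for *Acacb*, *Scd2*, *Fads2* and *Me1*.

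The regulators of the branch gave no call. *Srebf1*, whose SREBP1c form drives lipogenesis, had 1073 and 794 in G9aKO livers, against 1810.0 and 1033 in WT livers. It had the lowest log2 fold change of either branch, -0.57 with an SE of 0.30 (unadjusted p = 0.106, adjusted p = 0.586), and the higher G9aKO array slightly exceeded the lower WT array. The value rested on WT array 1, without which it was -0.16. The probe set does not part the SREBP1a and SREBP1c forms as far as its annotation goes. *Mlxipl* had 3102 and 3455 in G9aKO livers, against 3708 and 2664 in WT livers (log2 fold change 0.059, SE 0.18, adjusted p = 0.938).

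Over single probe sets, each branch was read again without a choice of the brightest. Of 33 detected sterol probe sets, 31 had a difference above 0, 14 were higher in G9aKO liver without overlap and 1 was lower. Over all 17158 detected probe sets, 21.7% were higher and 19.4% lower without overlap, and 0.233% were higher at an adjusted p under 0.05, among them 1 sterol probe set. Of 30 fatty acid probe sets, 22 were above 0, 11 were higher without overlap and 1 was lower. Of the genes with several detected probe sets, 7 of 8 sterol genes and 8 of 10 fatty acid genes had probe sets of 1 sign, the exceptions being *Sc5d*, *Acly* and *Scd1*. *Sqle*, *Dhcr7*, *Msmo1* and *Fdps* had 1 detected probe set each, so that none of them has a second detected reading.

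**Figure D4:**
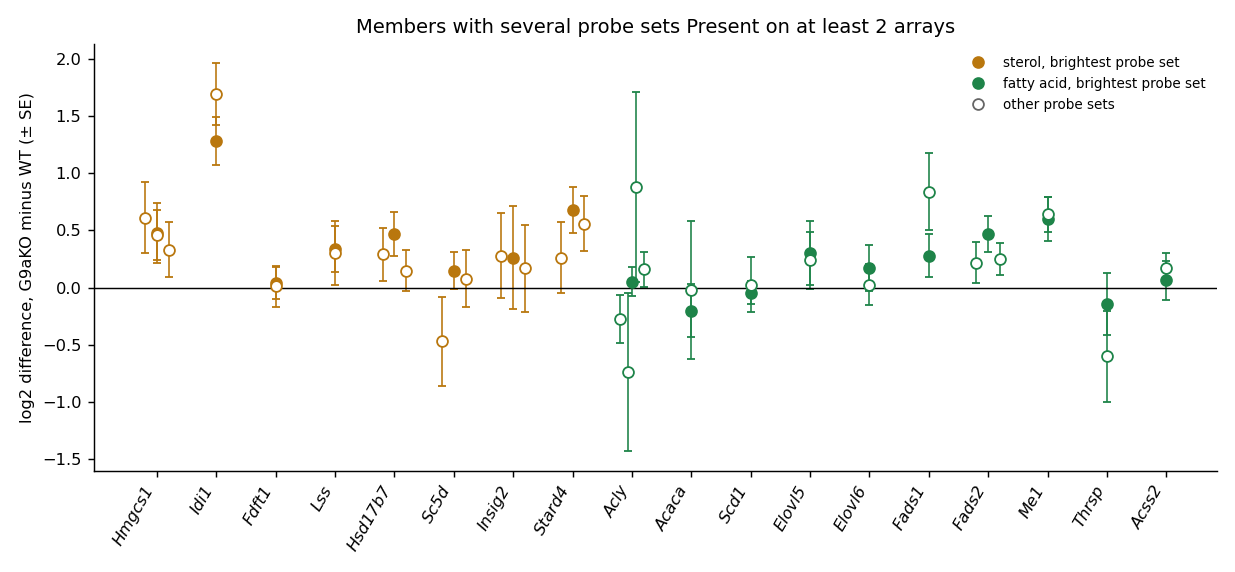
Log2 difference of G9aKO minus WT with its SE at each detected probe set of the 18 members that had several, sterol genes in brown and fatty acid genes in green, with the brightest probe set filled. Both probe sets of *Idi1* lie above 1 and those of *Fads2* and *Me1* above 0, while those of *Acly* fall on both sides.

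The arrays also differed in ways that crossed the genotypes. The clock output gene *Dbp* had signals of 615 and 7349.7 in G9aKO livers, against 423 and 6760.4 in WT livers. The clock genes *Arntl* (721 and 229 in G9aKO livers, 543 and 228 in WT livers) and *Cry1* (634 and 222 in G9aKO livers, 632 and 239.9 in WT livers) ran the other way. On these genes array 1 of either genotype resembled the other, as did array 2, where the numbers only follow the order of deposit. The sources used here do not state the time of day at sampling, and its part in any value was not tested. Of the 35 tested members, 17 were higher on array 1 than on array 2 in both genotypes, 5 were lower in both and 13 had opposite orders. Differences of at least 1.3-fold in both genotypes were seen for *Insig2*, *Hmgcs1* and *Srebf1*, which were higher on array 1, and for *Thrsp* and *Me1*, which were lower. These orders were not counted over all tested genes, so that they cannot be called particular to the members. *Sqle* differed 1.07-fold between the G9aKO arrays and 1.20-fold between the WT arrays.

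**Figure D5:**
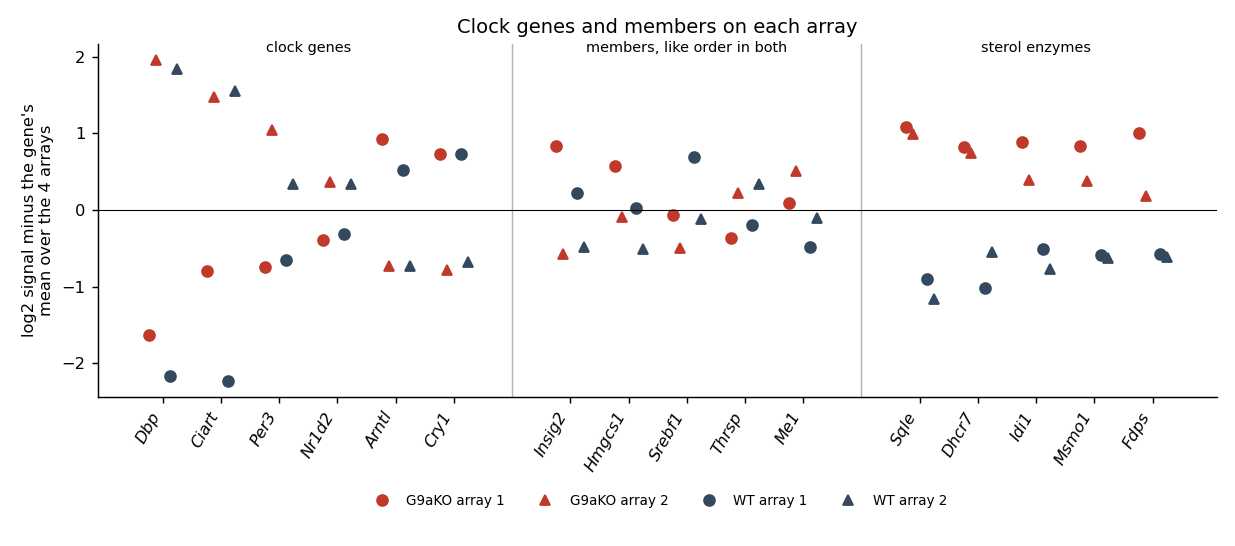
Log2 signal minus the gene's mean over the 4 arrays for 6 clock genes (left), the 5 members with the same order of arrays 1 and 2, by at least 1.3-fold, in both genotypes (middle) and the 5 sterol enzymes with the highest fold changes (right), a selection made after the values were seen. Circles and triangles separate for *Dbp*, *Arntl* and *Cry1*, and red and dark grey separate for *Sqle*, *Dhcr7*, *Idi1*, *Msmo1* and *Fdps*.

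Averaged over its genes, the sterol branch lay 0.47 and 0.15 log2 units above the gene means on the G9aKO arrays, and at -0.24 and -0.38 on the WT arrays. The fatty acid branch lay at 0.059 and 0.10 on the G9aKO arrays and at -0.10 and -0.066 on the WT arrays. Markers of other liver cells differed in direction by cell type, with 0 called in any list. All 14 macrophage and Kupffer cell markers had fold changes above 0, with a median of 0.51. Of them, 5 (35.7%) were higher without overlap, beside 22.3% of all genes. Their summed signals were 75998 and 48716 in G9aKO livers, against 35307 and 51620.3 in WT livers. All 9 tested stellate cell markers were above 0 (median 0.55), and 6 (66.7%) were higher without overlap, beside the same 22.3%. Their sums were 20839.9 and 12954 in G9aKO livers, against 10940.1 and 15578 in WT livers, and *Des* was not Present on any array. Of the cholangiocyte markers 2 were tested, *Pkhd1* (478 and 286 in G9aKO livers, 74.8 and 120.0 in WT livers, log2 fold change 1.96, adjusted p = 0.163, limma) and *Sox9* (0.71). Of 7 endothelial markers 3 were above 0 (median -0.051), and of 3 lymphocyte markers 0 were (median -0.22). The summed signal of the sterol branch was 74793 and 53436 in G9aKO livers, against 54709.9 and 46658 in WT livers, with overlap as in the macrophage and stellate lists. Its enzymes alone summed to 50538 and 40086 in G9aKO livers, against 37531 and 34101 in WT livers, without overlap. Its regulators summed to 24255 and 13351 in G9aKO livers, against 17179 and 12557 in WT livers, with overlap. The 12 hepatocyte markers were all detected, with sums of 681499 and 607538 in G9aKO livers, against 698332 and 663234 in WT livers (median -0.09). The adipocyte markers *Adipoq*, *Lep* and *Retn* were not Present on any array, and 4 tested adipocyte markers had a median of -0.25. The part of other cell types in the sterol values was not tested.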

How the data were processed

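The authors processed the arrays with MAS5, named in the submitters' processing notes without a version. The deposited values per array were intensity signals on a linear scale, with the authors' detection p-value and call, and the authors' series matrix held the same signals (largest relative difference 5e-06). Probe sets were named from the platform annotation: of 45101, 64 were controls, 34945 named 1 gene, 932 several and 9160 none, and no gene was named from the last groups. RefSeq of GRCm38.p6 left the symbols of 34741 probe sets unchanged.

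Of a gene's probe sets called Present on 2 or more arrays, the one with the greatest average log2 signal stood for the gene. Log2 signals without pseudocount were compared between 2 G9aKO and 2 WT arrays with limma 3.58.1 in R 4.3.3 (lmFit, eBayes with a mean-variance trend, 2 residual and 4.02 prior degrees of freedom), with Benjamini-Hochberg adjustment over 10350 genes and a threshold of 0.05. The fit was tested on simulated data. The number of arrays limits the precision. Alternatives were quantile normalization, median centring, other detection filters, log2(signal + 16), the mean over probe sets, no trend, the methods' t-test, the series matrix and each array left out.

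The members and lists were chosen with earlier results of these data known. All 39 members are named, with every array's signal for those at an unadjusted p under 0.05, for *Srebf1*, *Srebf2*, *Insig1*, *Scap*, *Mlxipl*, *Fasn*, *Acaca*, *Scd1*, *Scd2* and *Hmgcs1*, and for those not detected or with probe sets of both signs. Of the related gene lists, the 3 genes with the smallest p are named. Listed genes without a probe set of their own were not analysed here.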

Additional observations from a re-analysis of the deposited data

How the results depend on the processing

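Of 35 members, 21 kept their direction in every alternative run for them. The alternatives were 13, or 12 for *Dhcr7*, *Srebf2* and *Acacb*, which were not Present on all 4 arrays. Of 452 values of single members, 24 turned round. The fits with no trend, the methods' t-test and the series matrix use the same signals as the main fit. They could therefore turn no value round. Median centring, which moved the median of all genes to -0.04, gave *Fdft1* -0.026, *Insig1* -0.027, *Acly* -0.0084 and *Mlxipl* -0.0038, a fatty acid median of 0.12 and 2 fatty acid genes lower without overlap. Quantile normalization gave *Scd1* 0.015, the mean over probe sets gave *Sc5d* -0.082, and no filter on detection calls gave *Srebf2* -0.23 and 2 sterol genes lower without overlap. For median centring and for no filter, the share of all genes lower without overlap was not counted. It was 19.3% in the main fit, so that these counts cannot be called particular to the members. Sterol genes called higher were 0 with no filter, with no variance trend and by the methods' t-test. Over all genes, 11 were called higher and 4 lower with no filter, 19 higher when Present on all 4 arrays was required, and 0 in both directions with no trend or the t-test. *Sqle* kept its call in 7 of 13 alternatives, of which the series matrix and the mean over its only probe set repeat the main signals.

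Leaving out single arrays gave 8 to 54 genes higher and 0 to 17 lower over all genes, 0 to 4 sterol genes called higher (*Sqle*, *Idi1*, *Fdps* and *Msmo1* without G9aKO array 2), 1 to 2 sterol genes lower without overlap, and a sterol median of 0.18 to 0.69. The lone array left in a genotype was assumed to vary like the others. For fatty acid genes it gave a median of 0.11 to 0.19, 5 to 9 higher without overlap and 2 to 4 lower, while over all genes 36.2% to 39.6% were higher and 32.6% to 34.3% lower without overlap with an array left out. Members that changed sign ranged over -0.068 to 0.14 (*Fdft1*), -0.029 to 0.33 (*Sc5d*), -0.092 to 0.16 (*Insig1*), -0.45 to 0.97 (*Insig2*), -0.46 to 0.055 (*Acaca*), -0.12 to 0.026 (*Scd1*), -0.17 to 0.78 (*Elovl5*), -0.047 to 0.38 (*Elovl6*), -0.44 to 0.16 (*Thrsp*), -0.11 to 0.24 (*Acss2*), -0.17 to 0.55 (*Gpam*) and -0.18 to 0.30 (*Mlxipl*). Without a change of sign, *Hmgcs1* ranged over 0.15 to 0.82, *Nsdhl* 0.18 to 0.94, *Scap* 0.10 to 0.53, *Fads1* 0.033 to 0.53, *Fdps* 0.78 to 1.60 and *Srebf1* -0.97 to -0.16. The causes were not tested. No paired analysis was possible because the labels give no replicate numbers or pairing, and the order of deposit does not pair animals. Signals near or below 181.1, the range of most Absent calls, limit *Srebf2*, *Pnpla3* and the WT side of *Sqle* (205 and 171), and *Mvk* and *Mvd* were Absent at signals up to 291.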

Other observations

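Other genes of the sterol route or next to it, outside the listed members, gave no call. Of 22 listed, 14 were tested, 8 had a log2 fold change above 0, 0 were called, and the median was 0.079. The groups did not overlap for 5 that were higher (35.7%) and 1 that was lower, beside 22.3% and 19.3% of all genes. *Rdh11*, a retinal reductase under SREBP control, had signals of 1110.4 and 968 in G9aKO livers, against 643 and 432 in WT livers, without overlap (log2 fold change 0.98, SE 0.23, unadjusted p = 0.00563, adjusted p = 0.243, limma). *Cyp51*, the demethylase that acts on lanosterol, had 1141 and 772 in G9aKO livers, against 816 and 302 in WT livers, with overlap (0.92, adjusted p = 0.574). *Abca1*, which exports cholesterol and is a target of the oxysterol receptors LXR, had 7643 and 6461 in G9aKO livers, against 9089 and 8098 in WT livers, lower without overlap (-0.29, unadjusted p = 0.0713, adjusted p = 0.54).

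Of 33 listed genes of fatty acid and triglyceride metabolism beside the branch, 30 were tested, 19 were above 0, 0 were called and the median was 0.082. *Pklr*, liver pyruvate kinase and a target of ChREBP, had 864 and 1056 in G9aKO livers, against 422 and 463 in WT livers (log2 fold change 1.11, SE 0.18, unadjusted p = 0.000891, adjusted p = 0.112). *Acsl5*, an acyl-CoA synthetase, had 10707 and 8974 in G9aKO livers, against 6839 and 7140.4 in WT livers (0.49, adjusted p = 0.287). *Elovl2*, an elongase of polyunsaturated chains, had 11885 and 15412 in G9aKO livers, against 16701 and 21267 in WT livers (-0.48, adjusted p = 0.456).

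Of the genes that respond to fasting, 0 of 8 tested were called by limma or had an unadjusted p under 0.05, and some set G9aKO array 1 apart. *Pdk4*, which restrains pyruvate oxidation, had 3935 and 725 in G9aKO livers, against 779 and 492 in WT livers, and *Igfbp1*, which insulin represses, had 33797 and 9092 in G9aKO livers, against 7915 and 10659.8 in WT livers. *Pck1* had 42171 and 46129.7 in G9aKO livers, against 44300.1 and 50349 in WT livers. For the mice of these arrays the sources used here do not say whether they were fasted, and the part of feeding in the sterol values was not tested.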
